A study of Mus musculus with 23 samples.

Results

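The comparison of lymphomas that lack Snf5 with normal cells of the same lineage is described here, over 11 of the 23 arrays of the series. Its members were chosen from the sample titles: 5 arrays of purified CD8+ cells of lymphomas without Snf5 (lymphoma 1 to 5) and 6 arrays of CD8+ T cells from wild-type mice (wild-type 1 to 6). All of these mice were 10 to 15 weeks old per the labels. The other 12 arrays of the series are of mouse embryonic fibroblasts (MEFs), taken at embryonic stage E13.5. Of these, 3 arrays of MEFs deficient in both Snf5 and Ezh2 and 3 of their wild-type controls are used at the end. The Cre driver, the allele, the strain, the sex, any pooling of animals and the way CD8+ cells were purified are not stated in the labels. The titles call the arrays biological replicates without naming animals, so every p-value below measures only the spread between these samples. Total RNA was read on an Affymetrix mouse array (430A 2.0). A level below is a log2 RMA value of a probe set, while a change is a difference of mean log2 values, lymphoma minus wild type, with its standard error (SE).

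Smarcb1 encodes Snf5, a subunit common to the SWI/SNF complexes, which use ATP to move nucleosomes at promoters and enhancers. Ezh2 is the methyltransferase of Polycomb repressive complex PRC2, which marks silent genes with methylated histone H3. Loss of Snf5 causes rhabdoid tumours in children, and its deletion in mice gives aggressive lymphomas of mature CD8+ T cells. A resting CD8+ T cell circulates with a naive programme driven by factors such as Klf2 and Satb1. After antigen contact it divides, raises costimulatory receptors and arms granules with granzymes. In bulk samples such as these, fewer cells of a type and less RNA per cell cannot be told apart.

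The targeted gene was lower in all lymphomas. On the first Smarcb1 probe set the wild-type arrays 1 to 6 read 11.23, 11.48, 10.38, 10.51, 11.46 and 11.12, and lymphomas 1 to 5 read 8.30, 8.49, 5.81, 5.64 and 8.67. The groups did not overlap, and lymphomas 3 and 4 had the least signal. The change was -3.65 ± 0.591 (SE, 6 against 5 arrays), a 12.5-fold fall, with limma's adjusted p = 0.00244 and a 2-sided exact permutation p = 0.00216, the smallest this design can give. With wild-type 2 to 5 the fall was 11.9-fold (limma's adjusted p = 0.00678). The second probe set fell 3.86-fold, and 3.61-fold with wild-type 2 to 5 (limma's adjusted p = 0.0114 and 0.0233). The labels do not say which exons were deleted or whether the probes match them, so the remaining signal says nothing of intact transcript. Ezh2 read 12.17, 11.38, 10.66, 10.46, 12.02 and 12.46 on wild-type 1 to 6, lowest on wild-type 3 and 4 like the mitosis genes below, and 13.30, 12.82, 13.16, 12.97 and 13.24 in the lymphomas. It was 2.98-fold higher, with no overlap (limma's adjusted p = 0.0133, exact permutation p = 0.00433). With wild-type 2 to 5 it was 3.91-fold higher (limma's adjusted p = 0.00176).

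The wild-type arrays were not alike. Cd8b1, the beta chain of the CD8 coreceptor, read 9.35 on wild-type 1 and 8.07 on wild-type 6, against 12.53 to 13.61 on wild-type 2 to 5 and 11.97 to 12.90 in the lymphomas. The 22 B cell markers had a mean of 11 and 10.93 on wild-type 1 and 6, but 7.67 to 8.62 on wild-type 2 to 5 and 7.44 to 7.88 in the lymphomas. For 17 granulocyte and mast cell markers the means were 12.68 and 12.58 on those 2 arrays, 5.49 to 7.71 on wild-type 2 to 5 and 6.52 to 9.94 in the lymphomas. Cd4, the coreceptor of helper T cells, read 11.11 on wild-type 5 and 9.12, 9.63 and 8.99 on wild-type 1, 2 and 6. On wild-type 3 and 4 it read 6.58 and 6.25, and the lymphomas lay between 5.92 and 6.73. The 15 erythroid markers averaged 10.02 and 9.75 on wild-type 2 and 5 and 9.06 and 9.11 on wild-type 1 and 6. They averaged 5.89 and 5.94 on wild-type 3 and 4 and 5.37 to 8.67 in the lymphomas. Macrophage markers (28 genes) averaged 9.61, 7.09, 9.72, 8.84 and 9.54 in lymphomas 1 to 5, 11.10 and 10.99 on wild-type 1 and 6, and 5.99 to 7.28 on wild-type 2 to 5. Stromal and endothelial markers (29 genes) had low means, at 5.60 to 6.39 in wild type and 5.80 to 6.30 in the lymphomas, and Col1a1, a fibroblast collagen, read at most 5.92. Some members read higher, such as Thy1, also on the T cell list, at 12.34 to 13.55, and Cav1, at up to 11.62 in the lymphomas. Because wild-type 1 and 6 carry this other RNA, each result was also computed with wild-type 2 to 5 alone, and the word "rose" or "fell" is used below for a gene that passed limma's adjusted p of 0.05 in both comparisons, called the 11-array and the 9-array comparison.

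**Figure D1:**
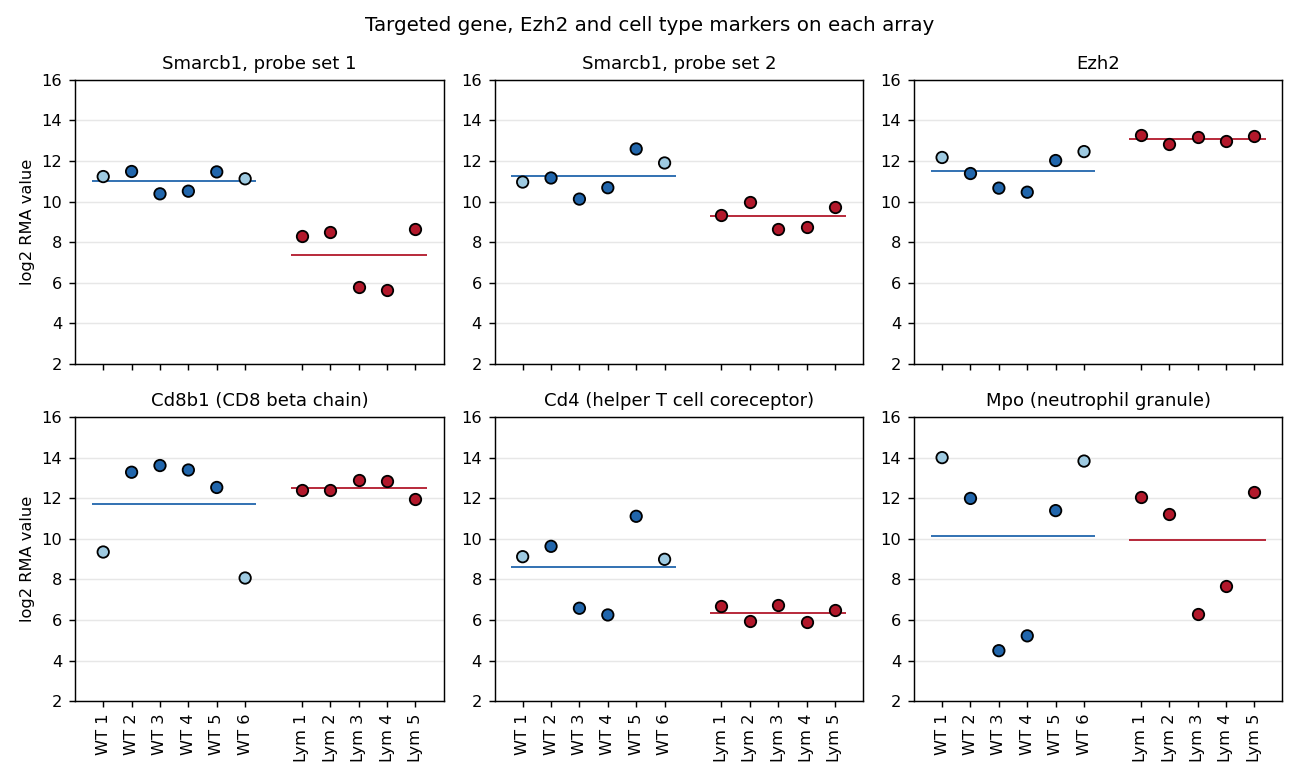
Log2 RMA values of 6 probe sets on each of the 11 arrays, with 1 point per array, horizontal lines at group means, wild-type 1 and 6 in light blue, wild-type 2 to 5 in dark blue and lymphomas in red. Smarcb1 is lower and Ezh2 higher in all 5 lymphomas, Cd8b1 is low on wild-type 1 and 6 (9.35 and 8.07), and Mpo, a neutrophil granule enzyme, ranges from 4.49 to 14 within wild type.

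Some arrays were also more alike than others. Over 9577 bright probe sets the SD of the difference between lymphomas 1 and 5 was 0.377, below the 0.489 to 0.742 of the other 9 lymphoma pairs and the 0.480 to 1.27 of the 15 wild-type pairs. Xist, the RNA of the inactive X chromosome, was high on lymphomas 1 and 5 (13.19 and 12.25) and low on lymphomas 2 to 4 (5.44, 5.15 and 4.85), and the Y-linked Eif2s3y was high where Xist was low. All 6 wild-type arrays had Xist at 12.85 or more, while Eif2s3y also read 9.84 on wild-type 3 and 6.11 on wild-type 4. Xist and Eif2s3y are therefore not read as lymphoma changes. Among the genes described below, Fgf13, Gpr34 and Itm2a lie on the X chromosome, and for each of them all 5 lymphomas, high or low in Xist, lay on the same side of all 6 wild-type arrays. The replicate spread was smaller among lymphomas than among wild-type arrays: the median SD per probe set was 0.261 over 5 lymphomas and 0.419 over 6 wild-type arrays.

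Of 12393 genes, each read through 1 probe set, 1124 (9.07%) were higher and 955 (7.71%) lower in the lymphomas in the 11-array comparison. Without lymphoma 4 or 5 the higher genes numbered 733 or 747. With wild-type 2 to 5 alone, 1637 (13.2%) were higher and 1639 (13.2%) lower. In both comparisons 999 genes (8.06%) rose and 871 (7.03%) fell, and 629 of the rises and 582 of the falls were at least 2-fold in both. The 5 lymphomas lay above all 6 wild-type arrays for 875 genes (7.06%) and below all of them for 706 (5.70%). These shares are the background against which the gene groups below are to be read, and the median change of all genes was -0.07 over 11 arrays and -0.11 over 9. For the 558 genes at least 4-fold higher in the 9-array comparison, wild-type 1 and 6 did not resemble the other wild-type arrays: on a scale with wild-type 2 to 5 at 0 and the lymphomas at 1, their median positions were 0.754 and 0.749. Without the markers of other cell types (531 genes left) these positions were 0.719 and 0.732. For the 359 genes at least 4-fold lower, they were 0.426 and 0.405. The part of other cells in this was not tested.

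**Figure D2:**
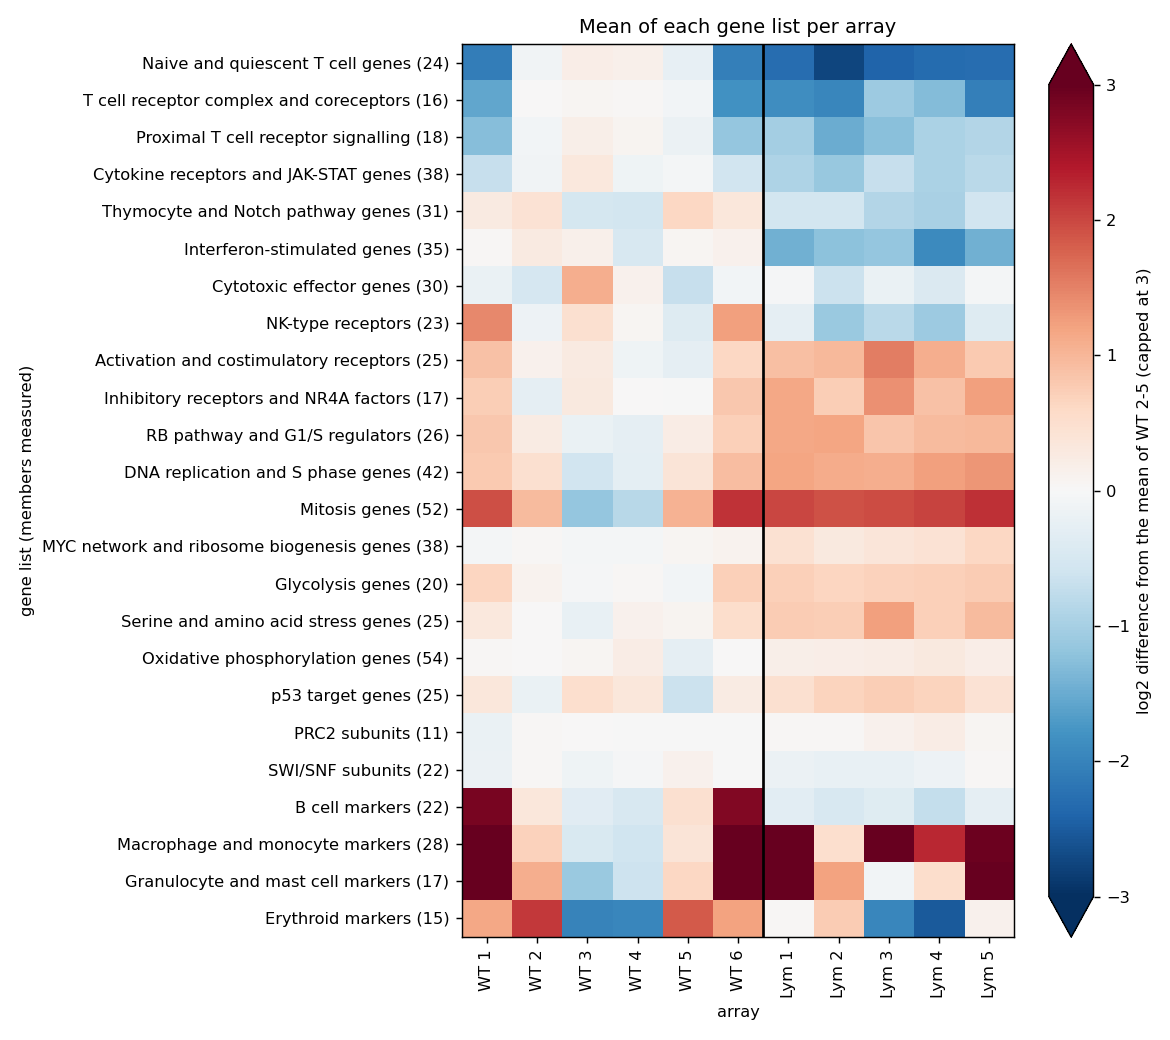
Mean log2 RMA value of each gene list on each array, given as the difference from the mean of wild-type 2 to 5 (colour, capped at 3 in either direction), with the number of measured genes in brackets. Interferon-stimulated genes are low in all 5 lymphomas (8.34 to 9.08) and on no wild-type array (9.77 to 10.51), whereas naive T cell genes are low in the lymphomas and also on wild-type 1 and 6 (9.86 and 9.90).

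Most of the largest rises were of genes with little signal in wild-type 2 to 5. Gcg, which encodes preproglucagon, read 13.45, 12.54, 13.88, 12.56 and 13.19 in lymphomas 1 to 5. In wild type its lowest, median and highest values were 3.73, 5.35 and 9.49, and no wild-type array reached a lymphoma. It rose by 7.26 ± 0.886 in the 11-array comparison (154-fold, limma's adjusted p = 0.000563) and 189-fold in the 9-array comparison. Pmp22, a membrane protein of myelin and epithelia, read 13.22, 11.71, 12.56, 10.34 and 13.01 in the lymphomas against 4.85, 5.19 and 8.56 in wild type, a 64.1-fold rise. Gstt3, a glutathione transferase, was nearly level across the lymphomas, at 11.76 to 12.06. On wild-type 2 to 5 it lay between 3.88 and 4.18, close to the array floor, but wild-type 1 and 6 read 10.01 and 9.76, so that the fold was 61.1 over 11 arrays and 235 over 9.

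Yap1, the transcriptional coactivator of the Hippo pathway, showed the same arrangement. Its lymphoma values were 11.62, 11.92, 11.91, 11.82 and 11.95, and it read 4.85 to 5.82 on wild-type 2 to 5 but 9.67 and 9.72 on wild-type 1 and 6. The rise was 35.0-fold over 11 arrays (adjusted p = 0.00520) and 98.4-fold over 9 (adjusted p = 4.76e-07), both by limma. Ptprk, a receptor tyrosine phosphatase, reached 13.34 to 13.94 in the lymphomas against 6.72, 8.60 and 10.57 in wild type, a 31.8-fold rise. Nectin3, a cell adhesion molecule, rose 48.9-fold, Cavin1, a coat protein of caveolae, 43.1-fold, Tpbg, a membrane glycoprotein, 31.5-fold, and Cd109, a GPI-anchored coreceptor of TGF-beta, 31.4-fold. Signalling genes included Gnai1 (49.5-fold) and Gng3 (30.9-fold), which encode an alpha and a gamma subunit of heterotrimeric G proteins, and Dusp14 (40.5-fold), a phosphatase. S100a5, a calcium-binding protein, rose 32.4-fold. Slc11a1, a metal transporter of phagocyte vesicles, rose 31.1-fold. It was highest on lymphoma 2 (13.35), where the macrophage marker mean was the lowest of the lymphomas. On wild-type 1 and 6, where that mean was high, it read 10.28 and 10.72, against 4.75 to 8.09 on wild-type 2 to 5. The part of macrophages in its values was not tested. Of the 14 largest rises, 10 had their highest wild-type 2 to 5 value on wild-type 4, while that array was highest for 131 (23.5%) of the 558 genes at least 4-fold higher. Cavin1 has 3 probe sets, of which only the brightest was called. Over 9 arrays the folds of these genes were larger, at 138 for Pmp22, 145 for Nectin3, 81.8 for Dusp14, 64.3 for S100a5, 57.6 for Ptprk, 70.0 for Tpbg, 52.9 for Cd109, 77.8 for Slc11a1 and 84.9 for Gng3, and 132 for Gnai1.

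The largest falls included T cell genes, a natural killer (NK) receptor chain and an interferon-stimulated gene. Trat1, an adaptor that stabilises the T cell receptor complex, read 9.88, 10.24 and 11.17 at the lowest, median and highest wild-type array and 4.66, 3.04, 2.74, 4.91 and 3.06 in the lymphomas. All 5 lymphoma values lay in the lowest 25% of their arrays, so the 108-fold fall (-6.76 ± 0.449, limma's adjusted p = 1.44e-05) is against values near the floor. Klrd1, the CD94 chain of NK receptors, read 10.74, 12.97 and 13.39 in wild type and 7.27, 6.91, 4.50, 3.83 and 7.06 in the lymphomas. It fell 87.4-fold over 11 arrays and 150-fold over 9. Satb1, an organiser of chromatin in T cells, went from a wild-type median of 12.76 to lymphoma values of 7.57, 6.11, 4.70, 5.05 and 7.25, a 73.0-fold fall (limma's adjusted p = 0.000204). For both genes the groups were separated by more than 3 units of log2, with lymphomas 3 and 4 at the bottom. Dtx1, a regulator of Notch signalling, fell 74.0-fold, Cd7, a receptor of T and NK cells, 57.6-fold, and Nsg2 49.5-fold. Other falls were of Ifi209 (50.6-fold), of the interferon-inducible p200 family, Fgf13 (46.9-fold), Hsd11b1 (35.4-fold), an enzyme that regenerates active glucocorticoid, Slfn1 (33.7-fold), a Schlafen gene linked to T cell quiescence, Gpr34 (32.7-fold), B3gnt5 (31.3-fold), Ifit3 (29.0-fold) and Lsp1 (26.9-fold), an actin-binding protein of leukocytes. For Fgf13 and Gpr34, too, all 5 lymphoma values lay near the floor (3.87 to 4.43 and 3.68 to 4.36), so their folds depend on it. The genes of both lists were chosen among those with no overlap between groups, and each of these 14 falls stayed called when any single array was left out. With wild-type 2 to 5 the falls came to a fold of 129 for Trat1, 128 for Dtx1, 113 for Satb1, 93.4 for Cd7, 65.0 for Nsg2, 103 for Fgf13 and 33.3 for Ifit3.

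**Figure D3:**
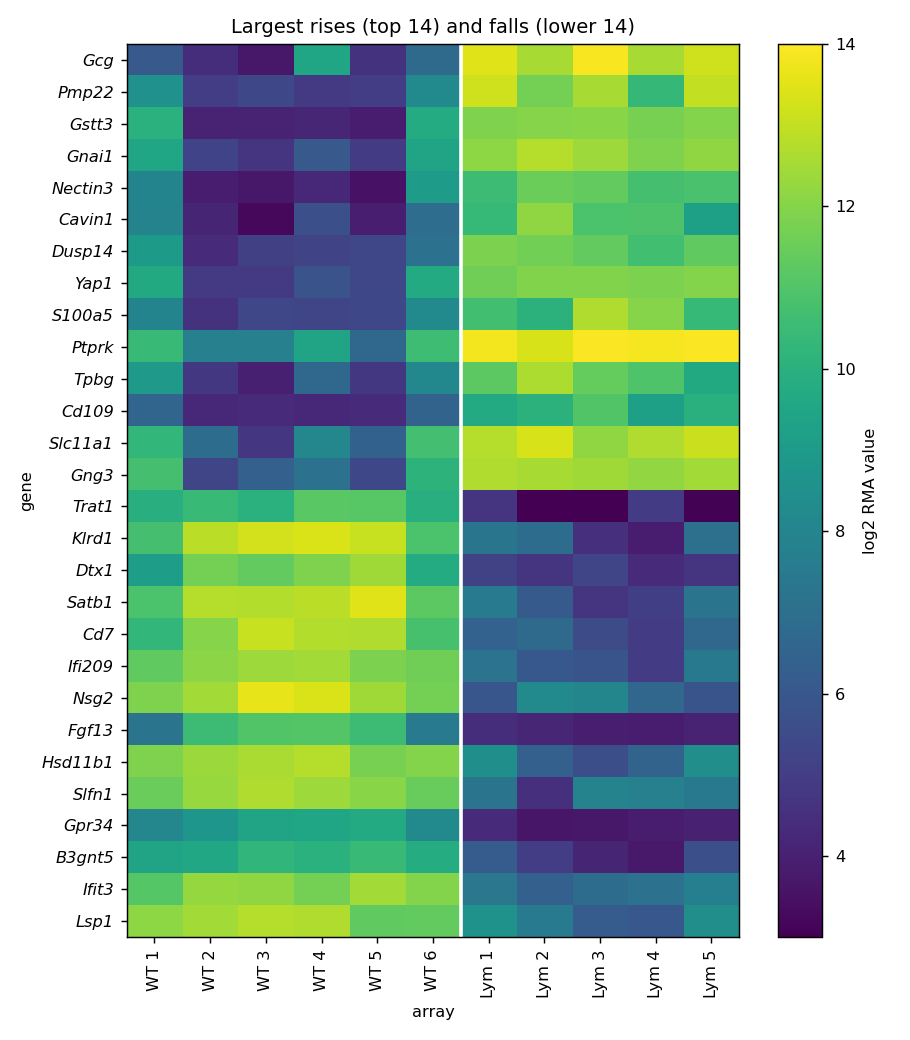
Log2 RMA values (colour) of the 14 genes with the largest rises and the 14 with the largest falls called in both comparisons, on 6 wild-type and 5 lymphoma arrays divided by the white line. The rises other than Gcg read higher on wild-type 1 and 6 (Gstt3 10.01 and 9.76) than on wild-type 2 to 5, Gcg is highest in wild type on wild-type 4 (9.49), and the falls are low in every lymphoma.

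In the list of the T cell receptor complex and its coreceptors, some genes fell and none rose in both comparisons. The list mean was lower in the lymphomas than on wild-type 2 to 5. Of 16 genes of the receptor complex and its coreceptors, 0 rose and 3 fell, against 8.06% and 7.03% of all genes. Their median change was 0.07 over 11 arrays and -0.54 over 9. The list averaged 10.27 and 10.00 on wild-type 1 and 6, 11.73 to 11.87 on wild-type 2 to 5 and 9.77 to 10.72 in the lymphomas. Of the variable segments of the alpha and beta chains measured, Trav12n-1 was lower over 9 arrays (-1.45, adjusted p = 0.00119 by limma) but not over 11 (-0.47, adjusted p = 0.655 by limma). The same held for Trav9d-3, with -0.43 over 9 arrays (adjusted p = 0.0463 by limma) and -0.08 over 11 (adjusted p = 0.857 by limma). Cd3e read 11.26 to 13.10 in wild type and 12.17 to 13.38 in the lymphomas, and Cd3d 12.80 to 14.05 and 13.53 to 13.84. The falls were of Trat1, Cd7 and Cd2, an adhesion receptor, and of no CD3 or CD8 chain. Cd2 fell 16.6-fold, but lymphoma 3 read 12.27, within the wild-type range of 11.58 to 13.66, while the other 4 lymphomas read 6.76 to 9.39. Over 9 arrays the fold was 23.2 for Cd2. Among 18 proximal signalling genes, 2 rose (Zap70 and Sh2d2a) and 2 fell (Txk and Sla2). Over 9 arrays 2 were higher and 7 lower. Txk, a Tec-family kinase, read 5.46, 9.13 and 11.01 in wild type and 3.66 to 4.28 in the lymphomas, near the floor, a 25.6-fold fall. Zap70, the kinase that binds the phosphorylated receptor, read 8.92, 10.79 and 11.69 in wild type and 11.93, 12.05, 12.31, 12.32 and 12.60 in the lymphomas. That rise of 3.29-fold (adjusted p = 0.0367) was lost on leaving out any lymphoma or wild-type 2, 5 or 6, with limma's adjusted p up to 0.0854, and only 1 of its 2 probe sets was called.

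Of the genes of the naive programme, many fell and none rose in both comparisons. Of 24 genes of naive and quiescent T cells, 11 fell and 0 rose, with a median change of -1.21 over 11 arrays and -1.96 over 9, where 16 were lower. Leaving out 1 array gave between 8 calls (without wild-type 2) and 12 (without wild-type 1). The 11 genes were Satb1, Nsg2, Tdrp, Klf3, Igfbp4, Actn1, Klf2, Il7r, Dgka, Txnip and Btg1. Klf2, the factor that keeps naive T cells quiescent and circulating, read 10.24, 12.08 and 13.04 in wild type and 10.42, 7.80, 9.50, 8.56 and 11.17 in the lymphomas. Its lymphoma 1 and 5 values lay inside the wild-type range. The fall was 5.23-fold (adjusted p = 0.0287), and limma's adjusted p rose to as much as 0.0754 without wild-type 2, 3, 4 or 5 or lymphoma 2, 3 or 4. Over 9 arrays the fall was 7.53-fold (limma's adjusted p = 0.0105). Il7r, the receptor for the survival cytokine interleukin 7, read 11.96, 13.40 and 13.64 in wild type and 11.66, 9.62, 11.34, 11.56 and 11.95 in the lymphomas. It fell 3.48-fold over 11 arrays (limma's adjusted p = 0.0222) and 4.76-fold over 9 (adjusted p = 0.00497), with no overlap, although the highest lymphoma and wild-type 1 differed by 0.01. A second, dimmer Il7r probe set was not called (-2.36, limma's adjusted p = 0.0695). Tdrp fell 66.2-fold over 9 arrays (limma's adjusted p = 2.02e-06). Its 11-array call was lost without any one of wild-type 2 to 5 or any lymphoma (limma's adjusted p up to 0.101), since wild-type 1 and 6 read 6.52 and 6.28, as low as the lymphomas. List means showed the same: the naive genes averaged 9.86 and 9.90 on wild-type 1 and 6, 11.70 to 12.13 on wild-type 2 to 5 and 9.18 to 9.66 in the lymphomas.

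Of the genes of activated T cells, some rose and none fell. Among 25 activation and costimulatory receptors and their factors, 9 rose and 0 fell, with a median change of 0.78 over 11 arrays and 0.71 over 9. All 9 lay above every wild-type array, and single arrays left out gave 8 or 9 calls. Il2ra, the high-affinity chain of the interleukin 2 receptor, read 4.92, 6.98 and 8.16 in wild type and 11.26, 9.75, 11.15, 9.63 and 10.84 in the lymphomas, a 14.2-fold rise (3.83 ± 0.622, limma's adjusted p = 0.00250). Tnfrsf4, the costimulatory receptor OX40, read 8.69, 9.29 and 11.01 in wild type and 12.53, 13.30, 13.30, 13.53 and 12.54 in the lymphomas, a 10.5-fold rise. Tnfrsf9, the receptor 4-1BB, was 7.42-fold higher over 11 arrays and 14.5-fold higher over 9. For both genes wild-type 1 and 6 gave the highest wild-type readings. Batf, an AP-1 factor of effector T cells, rose 5.62-fold, its relative Batf3 by 2.88 on the log2 scale, Icos 3.49-fold and Tnfrsf18, the receptor GITR, 3.00-fold. Irf4, the partner of Batf, read 10.47, 11.30 and 13.24 in wild type and 13.30 to 13.65 in the lymphomas. It rose 3.56-fold (adjusted p = 0.0270), but the call was lost without wild-type 2, 4 or 5 or any lymphoma (limma's adjusted p up to 0.0607). The 9-array folds were 16.2 for Tnfrsf4, 7.61 for Batf, 3.11 for Icos, 2.84 for Tnfrsf18 and 5.77 for Irf4. Il2ra rose by 4.32 on the log2 scale over 9 arrays.

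Of 17 inhibitory receptors and NR4A factors, 4 rose and 0 fell, with medians of 0.91 and 1.56 over 11 and 9 arrays. Between 2 (without wild-type 2) and 6 (without wild-type 3) passed when 1 array was left out. Nr4a2, a nuclear receptor induced by antigen receptor signals, read 5.22, 8.08 and 9.56 in wild type and 10.62, 11.23, 11.20, 11.41 and 10.52 in the lymphomas, a 10.2-fold rise with no overlap. Nr4a1 rose 4.08-fold (limma's adjusted p = 0.0145), although wild-type 4 at 11.06 lay within the lymphoma range of 10.83 to 11.77. Cd200r1, an inhibitory receptor, and Cd160, a receptor of cytotoxic cells, were the others. The Cd160 call was lost without wild-type 2 or without lymphoma 1, 3, 4 or 5, with limma's adjusted p up to 0.0766. The broader immediate early genes did not follow: of 30, 1 rose (Atf3) and 4 fell (Dusp2, Zfp36, Zfp36l2 and Ier5), with medians of -0.10 and -0.31. The Atf3 call was lost without wild-type 2, 3 or 5 or lymphoma 1, 3, 4 or 5 (limma's adjusted p up to 0.0866). Zfp36, which destabilises cytokine mRNAs, read 11.45, 11.81 and 12.97 in wild type and 9.23 to 10.82 in the lymphomas, a 3.64-fold fall. Dusp2, a phosphatase of MAP kinases, fell 9.27-fold, and its call was lost without lymphoma 3 (limma's adjusted p = 0.0512). Over the 9 arrays the folds came to 16.9 for Nr4a2, 4.31 for Nr4a1, 4.36 for Zfp36 and 20.8 for Dusp2.

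Genes of cytokine signalling fell more often than they rose. Among 38 cytokine receptors and JAK-STAT genes, 12 fell and 3 rose, with medians of -0.58 and -0.82 over 11 and 9 arrays. The falls counted both TGF-beta receptor chains, Tgfbr1 and Tgfbr2, their feedback inhibitor Smad7, the receptor chains Il6ra, Il7r, Il10ra, Il17ra, Il27ra and Ifngr1, the kinase Jak1, and Socs3 and Pim1, which cytokines induce. Tgfbr1 had a narrow spread on its brightest probe set: 10.24, 10.52 and 11 in wild type, and 8.21, 8.12, 8.29, 7.87 and 7.92 in the lymphomas. It fell by 2.51 on the log2 scale (SE 0.162), a 5.71-fold fall with limma's adjusted p = 1.15e-05, and the groups were far apart. Its dimmer probe sets changed by -0.90 (limma's adjusted p = 0.0238) and -0.98 (limma's adjusted p = 0.417, not called). Il17ra read 11.87, 12.12 and 12.54 in wild type and 9.26 to 10.16 in the lymphomas, a 6.03-fold fall. Jak1, the kinase shared by interferon and many interleukin receptors, fell 2.80-fold over 11 arrays and 3.77-fold over 9. The 3 rises were Il2ra, Stat5a and Stat4, of which Stat4, the transducer of interleukin 12 signals, rose 2.07-fold from a wild-type median of 11.93 to 12.81 to 13.22. For the genes described, 9-array folds were 5.86 for Tgfbr1, 6.37 for Il17ra and 1.75 for Stat4.

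The killing machinery showed no common direction. Of 30 cytotoxic effector genes, 2 rose (Gzmc and Gzmf) and 4 fell (Gzmk, Ccl4, Eomes and Id2), against 8.06% and 7.03% of all genes. Their median change was -0.28 in both comparisons. Gzmf, a granzyme, was near the floor on all wild-type arrays (4.55 to 4.74) and read 10.98, 9.11, 7.20, 8.72 and 10.92 in the lymphomas, a 26.8-fold rise. Gzmk, a granzyme of memory-type cells, went the other way, from 8.13, 9.14 and 11.90 in wild type to 6.55, 6.10, 4.72, 4.76 and 6.68, an 11.7-fold fall. Eomes, the T-box factor of memory and NK cells, read 8.00, 9.45 and 11.26 in wild type and 5.09 to 6.66 in the lymphomas, a 15.5-fold fall (limma's adjusted p = 0.00181). Neither Gzmk nor Eomes overlapped between groups. Folds over 9 arrays were 26.5 for Gzmf, 12.3 for Gzmk and 25.3 for Eomes. Of 23 NK-type receptors, 1 rose (Cd160, with the limit given above) and 3 fell (Klrd1, Klrc1 and Klra7). Klrc1, the NKG2A chain that pairs with the CD94 chain, fell 16.8-fold, with lymphoma values of 4.30 to 6.24, but only 1 of its 2 probe sets was called. NK-type receptors averaged 8.27 and 8.08 on wild-type 1 and 6, 6.45 to 7.33 on wild-type 2 to 5 and 5.73 to 6.56 in the lymphomas. This list shares Fcgr3 with the macrophage markers, whose means were also high on wild-type 1 and 6. The part of other cells in the NK-type mean was not tested.

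Genes of thymocytes and the Notch pathway were lower more often than higher. Of 31, 6 fell (Rag2, Dntt, Cd1d1, Notch1, Dtx1 and Gata3), and the only rise was of Il2ra, which activated T cells share. The medians were -0.37 and -0.38. Notch1, the receptor mutated in many T cell leukaemias, read 11.17, 11.80 and 12.65 in wild type and 9.19, 9.60, 9.27, 9.10 and 9.37 in the lymphomas. It fell 5.67-fold without overlap (-2.50 ± 0.233, limma's adjusted p = 0.000115). Over 9 arrays the fold was 6.47 for Notch1. Dntt, the terminal transferase of immature lymphocytes, read 9.35 to 11.73 in wild type and 4.64 to 6.90 in the lymphomas, and fell by 4.32 on the log2 scale. B cell precursors express Dntt and Rag2 too, and the B cell marker means of the arrays are given above.

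The interferon response was, of the 35 gene lists, the one with the most falls. Type I and type II interferons act through JAK kinases and STAT factors on promoters that carry interferon-stimulated response elements (ISREs), and the products block viral replication. Of 35 interferon-stimulated genes, 22 fell and 2 rose, against 7.03% and 8.06% of all genes. The median change was -1.40 over 11 arrays and -1.46 over 9, and 16 of the genes lay below every wild-type array in all 5 lymphomas. Between 20 (without lymphoma 1) and 23 were lower when 1 array was left out. Wild-type 1 and 6, with list means of 10.29 and 10.37, lay within the range of wild-type 2 to 5 (9.77 to 10.51), and the lymphomas averaged 8.82, 9.01, 9.08, 8.34 and 8.82.

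The promoters of 5 of the lower genes are shown as examples that carry the ISRE letters, which not all genes of the group hold; they come from the RefSeq table of assembly GRCm38.p6 and run from 5′ to 3′ along the gene. Capitals mark each match to the ISRE letters GAAANNGAAA on either strand. Ifit3 is at chr19:34583348-34583441 on the plus strand, Ifit1 at chr19:34640760-34640839 on the plus strand, Rsad2 at chr12:26456518-26456597 on the minus strand, Irgm1 at chr11:48871421-48871500 on the minus strand and Gbp2 at chr3:142620579-142620658 on the plus strand. All matches lie upstream of the start site.
Ifit3: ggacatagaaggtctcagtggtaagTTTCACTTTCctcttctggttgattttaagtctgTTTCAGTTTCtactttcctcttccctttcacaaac
Ifit1: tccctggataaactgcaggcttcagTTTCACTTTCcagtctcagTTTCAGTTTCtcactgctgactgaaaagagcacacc
Rsad2: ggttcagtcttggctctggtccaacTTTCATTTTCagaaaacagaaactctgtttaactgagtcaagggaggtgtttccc
Irgm1: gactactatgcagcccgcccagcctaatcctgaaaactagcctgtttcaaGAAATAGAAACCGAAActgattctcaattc
Gbp2: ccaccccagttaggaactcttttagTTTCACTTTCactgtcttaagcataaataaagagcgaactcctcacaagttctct
The Ifit3, Ifit1 and Irgm1 stretches hold 2 matches each and the others 1; the pair of Irgm1 overlap. Within 250 bases before to 50 bases after the start, the motif was found in 15 of the 25 interferon-stimulated genes with a promoter window (60.0%) and in 8 of the 15 that fell (53.3%), against 3.84% of all 9887 genes with a window. Genes that fell at least 2-fold held it in 6.28% of cases and genes that rose at least 2-fold in 3.39%. A match describes the letters of the window and not occupancy.

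Ifit3 and Ifit1, which bind viral RNA and whose promoters are shown above, were the most clearly separated. Ifit3 read 11.12, 12.09 and 12.46 in wild type and 7.37, 6.38, 6.87, 7.13 and 7.75 in the lymphomas, a 29.0-fold fall (-4.86 ± 0.285, limma's adjusted p = 8.18e-06). Ifit1 read 10.27, 10.51 and 11.56 in wild type and 7.17, 6.40, 6.71, 6.12 and 6.70 in the lymphomas, a 16.5-fold fall. No lymphoma came within 3 log2 units of the wild-type arrays for either gene. Mx1, a GTPase against influenza viruses, fell 19.4-fold, and Usp18, the protease that removes ISG15 and damps interferon signalling, 18.4-fold. Rsad2, the antiviral enzyme viperin, fell 7.52-fold, although lymphoma 1 at 9.35 lay just above wild-type 4 at 9.24. With wild-type 2 to 5 the folds were 33.3 for Ifit3, 18.4 for Ifit1, 21.6 for Mx1, 23.4 for Usp18 and 5.58 for Rsad2.

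Of the regulators of the response, Irf7, Irf9 and Stat2 fell between 1.91- and 3.86-fold. Irf7, the factor that amplifies interferon production, read 10.15, 10.52 and 10.80 in wild type and 8.72, 7.75, 9.58, 7.74 and 9.02 in the lymphomas, a 3.86-fold fall. Irf9 and Stat2 are transcription factors that act through the ISRE. Irf9 fell 1.91-fold with no overlap (adjusted p = 0.00949), and Stat2 1.98-fold (adjusted p = 0.0198), where limma's adjusted p reached 0.0529 without lymphoma 1, 4 or 5. A second, dimmer Stat2 probe set was not called (-0.49, limma's adjusted p = 0.433). Among the GTPases of the list, Irgm1, which targets intracellular parasites, fell 3.77-fold, from 10.24, 10.87 and 11.58 to 8.38, 9.07, 10.05, 8.71 and 8.67. Gbp2 fell 2.65-fold. Igtp fell 2.14-fold (adjusted p = 0.0494), a call lost without wild-type 2, 3, 4 or 5 or lymphoma 1, 3, 4 or 5 (limma's adjusted p up to 0.118). The 2 rises were of Bst2, the membrane tether tetherin, from 10.35 to 11.66 in wild type to 11.50 to 12.28, and Cxcl11, a chemokine, from at most 4.64 to 6.02, 5.34, 8.43, 8.71 and 5.53. Antigen presentation did not follow as a group: of 20 MHC class I processing genes, 1 fell (H2-M3, 2.16-fold) and 0 rose, with a median of -0.19. Over 9 arrays the folds stood at 3.87 for Irf7, 2.02 for Irf9, 1.77 for Stat2, 4.25 for Irgm1, 3.07 for Gbp2, 2.65 for Igtp and 1.94 for H2-M3.

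**Figure D4:**
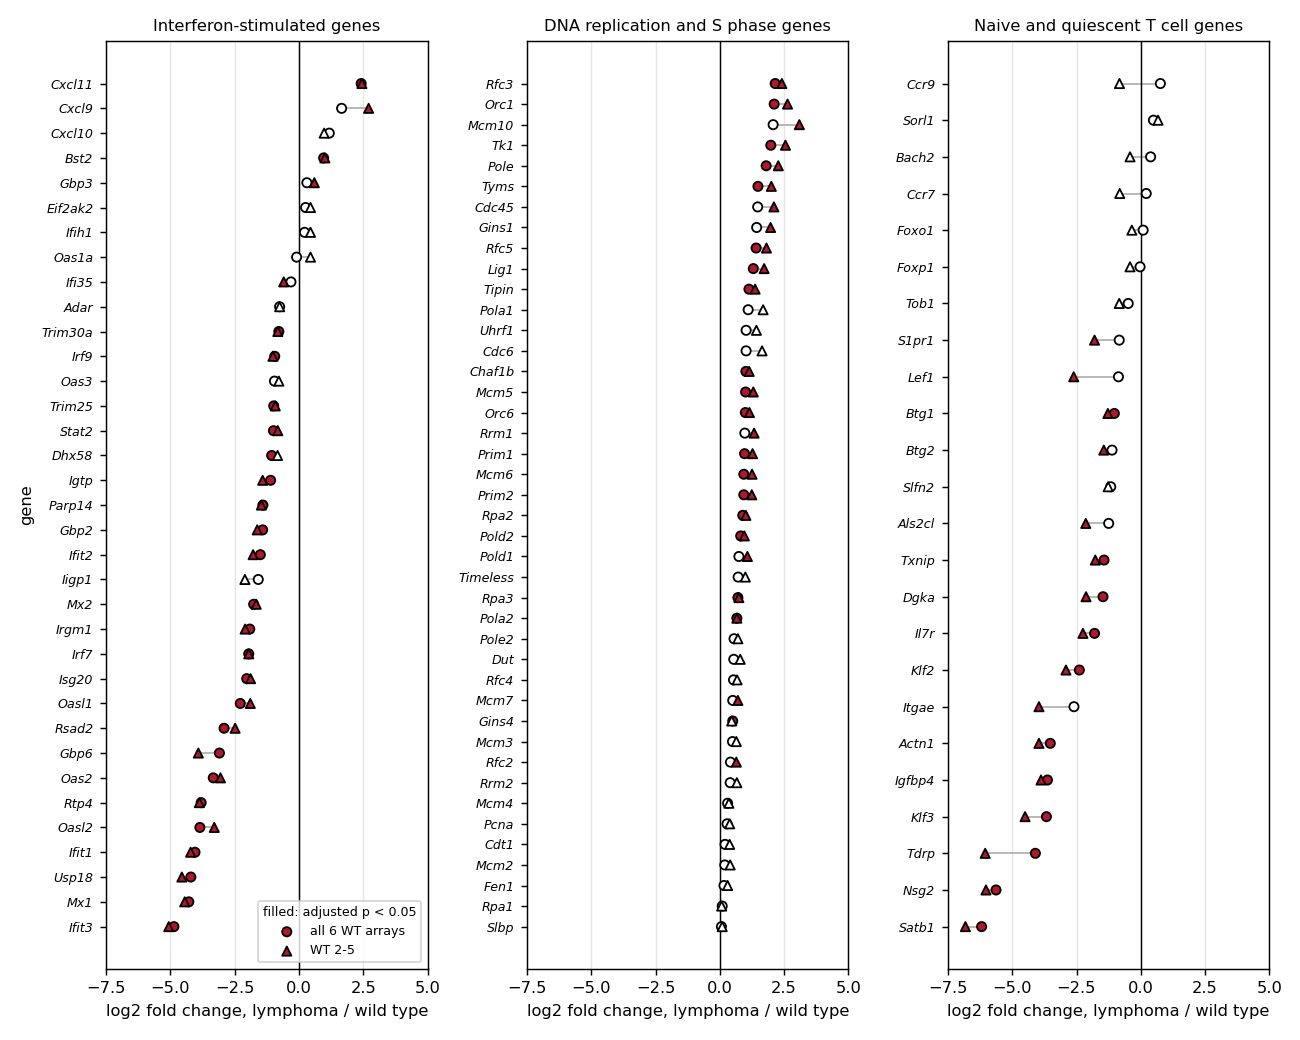
Log2 fold change, lymphoma over wild type, of each measured gene of 3 lists, from all 6 wild-type arrays (circles) and from wild-type 2 to 5 (triangles), filled where limma's adjusted p is under 0.05. Interferon-stimulated genes reach -4.86 (Ifit3) and most are filled on the left, S phase genes lie right of 0, and naive T cell genes lie mostly left of 0.

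Of the genes of DNA replication, some rose and none fell. E2F factors, released from RB family proteins as cells pass into S phase, switch on this group. Of 42 genes, 18 rose and 0 fell, with medians of 0.91 over 11 arrays and 1.10 over 9, and 13 lay above every wild-type array. The count of higher genes was 25 over 9 arrays, and between 9 (without lymphoma 3) and 21 (without wild-type 6) when 1 array was left out. The list averaged 10.15 and 10.42 on wild-type 3 and 4, 11.11 to 11.65 on the other wild-type arrays and 11.81 to 12.04 in the lymphomas. Rfc3, a subunit of the clamp loader, read 8.70, 9.46 and 10.31 in wild type and 11.55, 11.39, 12, 11.73 and 11.42 in the lymphomas, a 4.45-fold rise (2.15 ± 0.253, limma's adjusted p = 0.000458). Pole, the leading-strand polymerase, read 8.91 to 11.12 in wild type and 11.39 to 12.05 in the lymphomas. Orc1, the origin recognition subunit, rose 4.32-fold (limma's adjusted p = 0.0356), with wild-type 3 and 4 lowest at 6.10 and 6.18. Its call was lost without wild-type 2, 3 or 4 or lymphoma 1, 3, 4 or 5 (limma's adjusted p up to 0.0829). Tk1, thymidine kinase, rose 3.94-fold, and limma's adjusted p reached 0.0803 without any 1 lymphoma or wild-type 3 or 5. Rises over 9 arrays were, in folds, 5.33 for Rfc3, 6.20 for Orc1 and 5.84 for Tk1.

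The promoters of Rfc3 (chr5:151651209-151651288 on the minus strand) and Orc1 (chr4:108579374-108579453 on the plus strand) are shown as examples of the E2F letters in this group, from the same RefSeq table of GRCm38.p6, with each match on either strand in capitals. The letters searched were TTTCGCGC, TTTGGCGC, TTTCCCGC and TTTGCCGC.
Rfc3: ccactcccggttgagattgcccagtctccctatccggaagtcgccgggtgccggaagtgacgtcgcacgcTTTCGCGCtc
Orc1: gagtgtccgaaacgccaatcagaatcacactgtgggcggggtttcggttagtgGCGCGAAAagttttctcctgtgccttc
The E2F letters stood in 37.1% of the 35 S phase genes with a window and in 33.3% of the 15 of them that rose, against 4.07% of all genes. Genes that rose at least 2-fold held them in 4.99% of cases.

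Mitosis genes depended on which wild-type arrays were used. Of 52, 2 rose over both comparisons (Ndc80 and Mad2l1), but 42 were higher over 9 arrays and 48 with wild-type 2 to 4. Leaving out 1 array gave between 1 (without wild-type 2) and 13 (without wild-type 6). Their mean was 8.37 and 8.68 on wild-type 3 and 4, 10.48 to 11.68 on the other 4 wild-type arrays and 11.43 to 11.72 in the lymphomas. Mki67, the proliferation antigen, read 13.35, 12.66, 9.32, 9.56, 12.57 and 13.68 on wild-type 1 to 6 and 12.82 to 13.27 in the lymphomas, so that only wild-type 3 and 4 stood clearly below. It did not pass the test in either comparison (limma's adjusted p = 0.375 and 0.0772). Among the wild-type arrays, those with high mitosis means were also those with high erythroid marker means (9.06 to 10.02, against 5.89 and 5.94 on wild-type 3 and 4). Lymphomas 3 and 4 had mitosis means of 11.47 and 11.55 with erythroid means of 5.95 and 5.37. The part of those cells in the result was not tested. The call of Ndc80 was lost without wild-type 2, 3 or 4 or lymphoma 1, 3, 4 or 5 (limma's adjusted p up to 0.0740).

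Regulators of the G1/S step went both ways, CDK inhibitors included. Of 26 RB pathway and G1/S regulators, 5 rose and 2 fell, with medians of 0.41 and 0.53. Cdkn2a, the locus of the tumour suppressors Ink4a and Arf, read 4.32, 5.32 and 8.16 in wild type and 10.96, 10.65, 9.75, 10.22 and 11.01 in the lymphomas. It rose 24.6-fold over 11 arrays (4.62 ± 0.686, limma's adjusted p = 0.00151) and 49.1-fold over 9, with no overlap. Cdkn1a, the p53-induced CDK inhibitor, read 6.69, 8.10 and 10.45 in wild type and 12.13, 12.69, 12.14, 12.27 and 11.79 in the lymphomas, a 14.4-fold rise. Cdkn2b, the neighbour of Cdkn2a, rose 5.20-fold (limma's adjusted p = 0.0388), but wild-type 6 at 8.34 lay within the lymphoma range. Its call was lost without wild-type 2, 3, 4 or 5 or any lymphoma (limma's adjusted p up to 0.0962). Rbl2, an RB relative of quiescent cells, and E2f3 were the other rises. Cdkn1b, the CDK inhibitor of resting T cells, fell 2.24-fold, from 11.68, 12.19 and 12.84 to 11.64, 11.47, 10.74, 10.57 and 10.55, and Cdkn2d fell by 0.83 on the log2 scale. A second, dimmer Cdkn1b probe set was not called (-1.25, limma's adjusted p = 0.195). Other folds over 9 arrays were 27.1 for Cdkn1a, 9.90 for Cdkn2b and 2.58 for Cdkn1b.

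Targets of p53 went both ways. Of 25, 8 rose (Cdkn1a, Perp, Phlda3, Sesn2, Zmat3, Tnfrsf10b, Ei24 and Aen) and 4 fell (Gadd45a, Gadd45g, Sesn1 and Rrm2b), with medians of 0.61 and 0.56. Phlda3, an inhibitor of Akt, read 6.30, 7.88 and 8.94 in wild type and 9.85, 10.13, 10.63, 10.99 and 10.07 in the lymphomas, a 5.74-fold rise. Sesn1, a stress sensor upstream of mTORC1, went from 10.63, 11.48 and 12.27 to 9.54, 8.99, 9.13, 9.72 and 9.88, a 4.15-fold fall. Neither overlapped between groups. Perp, a desmosomal protein, rose 19.2-fold (adjusted p = 0.0309), and the call was lost without wild-type 2, 3 or 4 or lymphoma 1, 3, 4 or 5 (limma's adjusted p up to 0.0771). Of 18 apoptosis regulators of the BCL2 and IAP families, 2 rose: the survival protein Bcl2l1 (3.54-fold, from 7.29, 8.40 and 8.94 to 9.94, 9.88, 10.01, 10.59 and 10.14) and the killer protein Bcl2l11 (2.15-fold). The Bcl2l11 call was lost without lymphoma 2 or 4 (limma's adjusted p up to 0.0660). The folds over 9 arrays were 8.38 for Phlda3, 5.14 for Sesn1, 57.3 for Perp, 3.80 for Bcl2l1 and 1.93 for Bcl2l11.

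Polycomb and SWI/SNF genes changed in single members. Of 11 PRC2 genes, 2 rose (Ezh2 and Phf19) and 2 fell (Jarid2 and Phf1), with medians of 0.17 and 0.16. The other core subunits did not pass: Suz12 read 12.12 to 12.47 in wild type and 12.28 to 12.52 in the lymphomas, and Eed 11.83 to 12.64 and 12.25 to 12.61. Phf19, a Polycomb-like protein that guides PRC2 to chromatin, read 6.64, 7.34 and 8.24 in wild type and 9.42, 9.40, 9.46, 9.89 and 9.71 in the lymphomas, a 4.59-fold rise. A second, dimmer Phf19 probe set was not called (-0.22, limma's adjusted p = 0.470). Phf1, a relative of Phf19, fell 4.14-fold, from a median of 9.13 to values of 6.25 to 7.38. Jarid2, a PRC2 cofactor, fell 1.92-fold, and limma's adjusted p was 0.0528 without lymphoma 5. By limma, 0 of 14 PRC1 genes passed in both comparisons (3 at an unadjusted p under 0.05 over 11 arrays, and 1 at an adjusted p under 0.05 over 9), and the most clearly shifted by the naming rule was Ring1 (0.41 ± 0.149, adjusted p = 0.0858). Of 22 SWI/SNF genes, Smarcb1 fell together with Smarca2, the ATPase BRM, and Arid2, and Smarcc1 rose. Smarca2 read 11, 11.36 and 12.04 in wild type and 10.37, 10.66, 10.61, 9.65 and 10.10 in the lymphomas, a 2.15-fold fall. The call of Smarcc1 was lost without wild-type 4 or 6 or any lymphoma (limma's adjusted p up to 0.0908), and that of Arid2 without wild-type 2, 3 or 4 or lymphoma 3 or 4 (limma's adjusted p up to 0.0851). Of 24 DNA methylation and histone chaperone genes, 2 rose (Nasp and Suv39h2) and 2 fell (Tet1 and Mbd1), against 8.06% and 7.03% of all genes. Nasp, a chaperone of histone H3, was 1.92-fold higher with a narrow spread, at 11.06 to 11.38 in wild type and 11.91 to 12.31 in the lymphomas. A second, dimmer Nasp probe set was not called (0.07, limma's adjusted p = 0.829). Over 9 arrays, folds were 5.95 for Phf19, 6.05 for Phf1, 2.41 for Smarca2, 3.58 for Smarcc1 and 1.96 for Nasp.

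Some growth genes rose, and none fell in both comparisons. Of 38 MYC network and ribosome biogenesis genes, 15 rose and 0 fell, with medians of 0.43 and 0.50. Between 11 (without lymphoma 5) and 18 (without wild-type 4) were higher when 1 array was left out. List means were 10.74 to 10.91 in wild type, wild-type 1 and 6 included, and 11.11 to 11.43 in the lymphomas. Myc itself did not pass, at 11.71 to 12.15 in wild type and 12.56, 11.74, 12.23, 11.91 and 12.69 in the lymphomas (0.30 ± 0.191, limma's adjusted p = 0.322). Nop16, a nucleolar protein of ribosome assembly, read 9.02, 9.08 and 9.43 in wild type and 10.34, 10.14, 10.06, 10.07 and 10.14 in the lymphomas, a 2.03-fold rise. A second Nop16 probe set was not called (0.26, limma's adjusted p = 0.424). Cad, the first enzyme complex of pyrimidine synthesis, rose 3.13-fold and Odc1, of polyamine synthesis, 2.03-fold. Over 9 arrays these folds were 1.99 for Nop16, 3.78 for Cad and 2.28 for Odc1.

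Metabolic groups differed. Of 20 glycolysis genes, 6 rose (Pfkl, Aldoc, Tpi1, Eno2, Eno3 and Ldha) and 1 fell (Pdk1). Between 4 (without wild-type 2) and 9 (without wild-type 6) were higher when 1 array was left out. Eno2, the neuronal form of enolase, read 7.44, 8.63 and 9.97 in wild type and 11.66, 11.36, 12.15, 12.48 and 11.81 in the lymphomas, an 8.54-fold rise. Eno3, the muscle form, rose 5.98-fold. The fall of Pdk1, a kinase that inhibits pyruvate dehydrogenase, was lost without lymphoma 4 or 5 (limma's adjusted p up to 0.0580). Of 25 genes of serine synthesis and the amino acid stress response, 8 rose and 1 fell (Ddit3), with medians of 0.59 and 0.67. The count of higher genes ran from 4 (without lymphoma 3) to 10 (without wild-type 6). Psat1, an enzyme of serine synthesis, read 11.81, 12.24 and 13.09 in wild type and 13.45, 13.40, 13.48, 13.47 and 13.45 in the lymphomas, a 2.19-fold rise, and Phgdh, the first enzyme of that pathway, rose 2.02-fold. Of 54 oxidative phosphorylation genes 3 rose (Atp5g1, Ndufb8 and Cyc1), against 8.06% of all genes, and the median was 0.22. The count of higher genes was 0 without wild-type 4 or without any 1 lymphoma. Of 19 cholesterol synthesis genes, Idi1 and Fdft1 rose, against the same 8.06% of all genes, and the median was 0.12. Folds with wild-type 2 to 5 were 12.2 for Eno2, 9.89 for Eno3, 5.53 for Pdk1, 2.62 for Psat1 and 2.24 for Phgdh.

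Hedgehog signalling, which Snf5 is known to restrain through Gli1 in other cells, had low values. Of 13 genes, 1 rose, against 8.06% of all genes, and the list averaged 5.65 to 6.56 in wild type and 5.76 to 6.06 in the lymphomas. The rise was of Ptch1, the receptor, which read 11.87, 12.01 and 12.41 in wild type and 13.16, 13.51, 13.00, 13.22 and 13.09 in the lymphomas, a 2.13-fold rise (1.09 ± 0.151, limma's adjusted p = 0.00104), and 1.99-fold over 9 arrays. A second, dimmer Ptch1 probe set was not called.

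Among markers of other cell types few passed in both comparisons. By limma, 0 of 28 macrophage markers did (5 at an unadjusted p under 0.05 over 11 arrays), while 15 were higher over 9 arrays. Of 17 granulocyte and mast cell markers 0 passed both (1 at an unadjusted p under 0.05 over 11 arrays) and 6 were higher over 9 arrays. The defining B cell gene Cd79b, of the B cell receptor, read 9.18, 10.71 and 12.48 in wild type and 7.36, 5.64, 7.40, 6.86 and 7.14 in the lymphomas, a 16.1-fold fall over 11 arrays and 10.3-fold over 9. Cd72 was the other of 22 B cell markers to fall, against 7.03% of all genes. Of 15 class II and dendritic cell markers, Cd83 rose and H2-DMa fell. Of the stromal and endothelial markers, Cav1, the caveolar protein, rose 26.2-fold with lymphoma values of 10.93, 7.58, 11.62, 6.49 and 10.86, Col4a1 rose and Eng fell. The part of other cells in these differences was not tested.

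The lymphomas differed among themselves in a few genes by over 6 log2 units. Gzmd, Gzme and Gzmg, neighbouring granzyme genes, were high on lymphomas 1 and 5 and at the floor on the other arrays: Gzmg read 11.10, 3.76, 3.79, 3.91 and 10.89, and 3.49 to 4.31 in wild type. Foxi1, a forkhead factor, followed the same pattern (10.60 and 11, against 4.52 to 5.85 on the other lymphomas). Cxcl17, a chemokine, was high on lymphomas 3 and 4 (10.70 and 10.31, the other lymphomas at most 4.80), and so was Slc6a20a, an amino acid transporter (11.18 and 11.40). Cd5 and Cd6, the related scavenger receptors that damp T cell receptor signals, split the same way. Cd6 read 11.23 and 12.76 on lymphomas 3 and 4 and 6.96, 7.03 and 6.97 on lymphomas 1, 2 and 5. In wild type it read 6.95 and 7.25 on arrays 1 and 6 and 11.13 to 12.44 on the others. Grp, gastrin-releasing peptide, was highest on lymphoma 4 (12.50), then lymphoma 3 (8.81), with the rest at 5.03 to 6.51. Lymphomas 1 and 5 were also the pair most alike over the bright probe sets, and the labels do not say whether they come from separate animals.

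**Figure D5:**
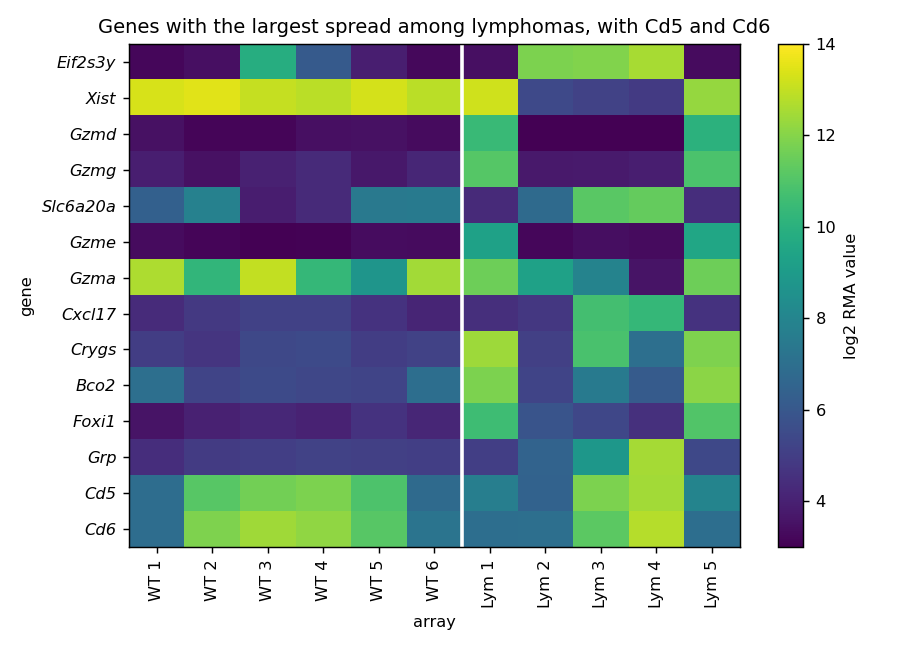
Log2 RMA values (colour) of the 12 genes with the largest SD among the 5 lymphomas, and of Cd5 and Cd6, on 6 wild-type and 5 lymphoma arrays divided by the white line. Gzmd, Gzme and Gzmg are bright on lymphomas 1 and 5 only, and Cd5 and Cd6 on lymphomas 3 and 4 among the lymphomas.

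The same series holds a second contrast in which Snf5 is lost, in MEFs that lack both Snf5 and Ezh2 against control MEFs, 3 arrays each. It shares no array with the lymphoma comparison, but it removes Ezh2 as well, and it was fitted separately. There 1643 genes (13.3%) were higher and 1752 (14.1%) lower. Of the 999 genes that rose in the lymphomas, 198 (19.8%, and 12.1% of the MEF list) were higher in the MEFs and 179 (17.9%, 10.2%) lower. Of the 871 that fell, 137 (15.7%, 7.82%) were lower and 181 (20.8%, 11%) higher. Itm2a, a membrane protein of activated T cells and chondrocytes, was higher in both by like amounts, 1.96 in lymphomas and 1.69 in MEFs, and Dcxr, a carbonyl reductase, by 2.80 and 1.85. Fgf13 was lower in both, by -5.55 and -1.64. Penk, proenkephalin, changed by 3.27 and 4.18, but its lymphoma call was lost without wild-type 2, 3 or 5 or lymphoma 2, 3 or 4 (limma's adjusted p up to 0.0996). The interferon genes went opposite ways: Ifit1 changed by -4.04 in lymphomas and 4.30 in MEFs, where it read 5.57, 5.99 and 5.72 in controls and 9.24, 10.04 and 10.89 without Snf5 and Ezh2. Usp18 changed by -4.20 and 2.66. Of the 35 interferon-stimulated genes, 26 were higher and 1 lower in the MEFs, with a median of 0.91. No test of the difference between the 2 contrasts was made, and cell type and Ezh2 status cannot be told apart in it.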

How the data were processed

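The deposited series matrix holds intensity values on a linear scale, which the authors made with Robust Multichip Average (RMA: background correction, quantile normalisation and probe set summary), per the labels' protocols. The software and version are not stated there. Values were log2-transformed, and no further normalisation was applied. After 64 control probe sets were left out, 22626 were tested with limma 3.58.1 in R 4.3.3 (lmFit, eBayes, Benjamini-Hochberg over all of them), once with 6 and once with 4 wild-type arrays. A probe set named a gene only where the platform annotation gave 1 symbol (20380 probe sets, against 691 with several and 1555 with none). Each of 12393 genes was read through its brightest probe set. The 6 MEF arrays were fitted separately. Promoter windows and their assembly came from RefSeq, with 9887 of 12393 genes matched. Array medians were 8.04 to 8.37, and the median SE of a change was 0.236 over 11 arrays and 0.227 over 9. Precision is limited by how many arrays there are, since no counts exist. No detection calls were used, and values in the lowest 25% of an array are called near the floor.

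By rule, the genes named were the 14 largest rises and falls called in both comparisons without overlap between groups, up to 3 members per list by size of change (the lowest p where none was called), 12 genes by lymphoma SD, and 5 per direction shared with the MEFs. A further 35 were added after their values were seen, as was the ISRE motif. The members and the 35 gene lists (858 of 1005 symbols measured) were chosen with earlier results of these data known. Tested on simulated data of the same size, with 200 of 22626 probe sets changed, the 11-array comparison recovered 35.0% of changes of 1 and 76.0% of changes of 2 on the log2 scale, and the 9-array comparison 40.5% and 83.0%. In the real data 3463 and 5566 probe sets were called, and the simulation gave both groups the same spread. Its rates therefore do not measure recovery in these data. The alternatives tried were other wild-type subsets, each array left out, a replicate block, other scalings, array weights, a filter on dim probe sets, an added constant, a trended robust prior and the mean of all probe sets of a gene.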

Additional observations from a re-analysis of the deposited data

Results flagged for a closer look

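In 312 groups of 4 to 10 arrays of the named genes, 10 had 1 array set apart from the rest by Dixon's test. By chance that test marks about 1 group in 20, so these 10 are fewer than chance alone would give. They are listed as a description and not as array faults. Lymphoma 2 accounted for 5 of the 10. It read 4.53 for Slfn1 where the other lymphomas read 7.24 to 7.93, 9.62 for Il7r (others 11.34 to 11.95), 6.56 for Cd72 (others 7.60 to 7.89), 10.91 for Idi1 (others 11.78 to 12.03) and 13.34 for Ptprk (others 13.80 to 13.94). Lymphoma 4 read 12.61 for Tk1 (others 12.08 to 12.20). In wild type, array 3 read 11.90 for Gzmk (others 8.13 to 9.23), array 2 read 11.56 for Ifit1 (others 10.27 to 10.75), array 5 read 9.43 for Nop16 (others 9.02 to 9.11) and array 1 read 4.42 for Grp (others 4.92 to 5.19), a value near the floor.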

How the results depend on the processing

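The number of genes called was 2079 over 11 arrays, 3276 with wild-type 2 to 5, 3312 with wild-type 2 to 4 and 3223 with array weights, and between 1397 and 2305 with 1 array left out. Higher genes numbered 1124, then 1689 with wild-type 2 to 4, 1719 with array weights and 733 to 1199 with 1 array left out. Lower genes numbered 955, then 1639 with wild-type 2 to 5, 1623 with wild-type 2 to 4 and 1504 with array weights. With lymphomas 1 and 5 averaged as 1 sample, 1500 genes were called. Choices of wild-type 2 to 4 and of averaging were made after seeing the data. Smarcb1 and Ezh2 kept their direction and their call under every alternative run. Of 133 named genes called in both comparisons, 0 changed direction, 29 lost the call when some 1 array was left out and 31 in another setting, among them 19 with lymphomas 1 and 5 averaged and 9 with the replicate block. Among genes that were not called, Cd5 ranged from -1.38 to 0.12 with 1 array left out, and Eed was -0.13 as the mean of all its probe sets. Replicate numbers were not taken to pair the samples: the correlations of same-numbered deviations were 0.235, 0.222, 0.127, 0.302 and 0.0711, and 3 of 5 wild-type arrays correlated best with the lymphoma of their number. With the replicate block 2061 genes were called. The cause of these shifts was not tested.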

Other observations

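Trgv1, a variable segment of the gamma chain of the T cell receptor used by gamma delta T cells, was lower in the lymphomas. It read 9.94, 7.93, 10.43, 8.53, 6.54 and 9.70 on wild-type 1 to 6 and 5.74, 3.74, 4.34, 3.77 and 5.45 on lymphomas 1 to 5, a change of -4.24 ± 0.690 by limma (adjusted p = 0.00250) with no overlap. With wild-type 2 to 5 the change was -3.75 (adjusted p = 0.00671 by limma). It was chosen after its values were seen.

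Probe sets of a gene did not always share a call. Of the 57 named genes called in both comparisons that have several probe sets, 34 had every probe set called in the same direction and 23 had fewer. In Tgfbr2 the bright probe set changed by -1.61 (limma's adjusted p = 0.0102) and the dimmest, with a mean of 3.18, by -0.04.

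In the 300-base promoter windows, the CHR letters TTTGAA stood in 71.1% of 45 mitosis genes and 15.4% of all genes, and the RUNX letters TGTGGT in 66.7% of 27 cytotoxic effector genes and 15.7% of all genes. The ETS letters CCGGAAGT stood in 7.23% of all genes, in 5.79% of genes that rose at least 2-fold and in 2.60% of genes that fell at least 2-fold. These are counts of letters on either strand and were not tested.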
